A study of Homo sapiens with 2 samples.

Results

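The MYC network and the PIM kinases were followed as a set of 10 genes chosen by name: MYC, MAX, MXD1, MXD4, MXI1, MNT, MLX, PIM1, PIM2 and PIM3. All 10 were found, each on a single row, among 24462 gene symbols. The set was assembled with earlier results of the same counts in view, so every value of its members is a description and none is a test. A549, an established human lung adenocarcinoma cell line, was transfected either with siRNAs against ADGRF4, an adhesion G protein-coupled receptor, or with control siRNAs, and both cultures were grown in the same serum-containing medium. There was 1 library of 3' end counts for each treatment, made with the Lexogen QuantSeq kit from total RNA, and the study asked how loss of ADGRF4 alters gene expression. How many siRNAs were used, their sequences and the time between transfection and harvest were not stated in the labels.

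MYC is a basic helix-loop-helix leucine zipper transcription factor that binds E-box DNA as a dimer with MAX and activates genes of ribosome production, nucleotide synthesis and cell cycle entry. MXD1, MXD4, MXI1 and MNT compete for MAX and recruit SIN3 corepressor complexes to the same elements, while MLX pairs with some of these repressors and with the glucose-responsive factors MLXIP and MLXIPL. PIM1, PIM2 and PIM3 are serine/threonine kinases with no known need for an activating phosphorylation, so that their activity follows the amount of protein, and PIM1 is a classical target of cytokine signalling through STAT factors. PIM kinases phosphorylate and stabilise MYC and cooperate with it in tumours.

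With 1 library per treatment there is no replicate check, and every difference below is between those 2 libraries. The ADGRF4 siRNA library held 9825320 counts and the control library 10396047. All 5 epithelial markers were counted in both, and they went both ways. In the ADGRF4 siRNA and control libraries KRT18 had 79367 and 58990 counts, KRT7 16919 and 7451, KRT8 7529 and 13756, CDH1 239 and 1218, and EPCAM 38 and 75. The leukocyte marker PTPRC had 2 and 7 counts in the same libraries, the endothelial marker PECAM1 1 and 0, and the fibroblast marker COL1A2 6 and 0. The fibroblast marker PDGFRB had 0 in each. ADGRF4 itself had 1 count in the ADGRF4 siRNA library and 3 in the control library. Both values were at or under the 3 counts that a count of 0 allows, so the silencing was not detectable at this depth and the labels are not checked by the silenced gene.

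Promoter sequence is shown for the 3 PIM genes, which were all lower in the ADGRF4 siRNA library, and for the 3 members whose promoter holds the E-box that MYC, MAX, MXD and MNT proteins bind. The sequences are from RefSeq on GRCh38.p14, which is not the hg19 build named for the counts. Bases are written 5′ to 3′ on the strand of the gene. Of the 10 members, all but MYC were matched, to 12 windows (MAX has 2 and MXI1 has 3), and the 250 bases before each start site were searched on both strands. The motifs were the E-box CACGTG and the GC box GGGCGG or CCGCCC, and no matches overlapped in these windows. The E-box was found in MXD4, MNT and MLX, and 6.34% of 35116 promoter windows hold it. The GC box was found in 11 of the 12 member windows, against 42.6% of all windows, and in at least 1 window of each matched member. Those shares of all windows were not limited to genes counted in these libraries, so nothing is read from the contrast.

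The E-box stands in capitals in these 40 bases of MXD4 (chr4:2262320-2262359, minus strand), MNT (chr17:2401229-2401268, minus strand) and MLX (chr17:42567035-42567074, plus strand).
MXD4: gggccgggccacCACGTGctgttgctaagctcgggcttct
MNT: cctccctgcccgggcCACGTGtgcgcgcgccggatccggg
MLX: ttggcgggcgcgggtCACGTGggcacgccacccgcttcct

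The GC boxes stand in capitals in the 250 bases before the start sites of PIM1 (chr6:37169902-37170151, plus strand), PIM2 (chrX:48919025-48919274, minus strand) and PIM3 (chr22:49960522-49960771, plus strand).
PIM1: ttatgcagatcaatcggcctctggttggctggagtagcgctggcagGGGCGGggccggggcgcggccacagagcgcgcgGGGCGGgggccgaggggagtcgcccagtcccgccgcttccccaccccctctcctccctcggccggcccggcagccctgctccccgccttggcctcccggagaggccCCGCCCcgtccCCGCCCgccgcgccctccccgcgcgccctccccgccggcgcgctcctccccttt
PIM2: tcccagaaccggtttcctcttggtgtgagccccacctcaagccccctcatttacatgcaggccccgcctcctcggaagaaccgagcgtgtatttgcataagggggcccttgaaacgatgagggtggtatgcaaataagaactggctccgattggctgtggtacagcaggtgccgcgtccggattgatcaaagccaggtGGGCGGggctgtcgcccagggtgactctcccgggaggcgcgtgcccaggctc
PIM3: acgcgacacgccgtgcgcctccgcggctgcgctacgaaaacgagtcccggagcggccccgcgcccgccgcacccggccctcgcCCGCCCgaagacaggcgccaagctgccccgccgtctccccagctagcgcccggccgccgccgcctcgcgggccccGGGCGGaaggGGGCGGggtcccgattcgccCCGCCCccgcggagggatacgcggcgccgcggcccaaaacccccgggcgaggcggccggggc
PIM1 and PIM3 each hold 4 GC boxes in this stretch and PIM2 holds 1. None of the 3 PIM windows holds the E-box.

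Counts were divided by library sizes scaled with the trimmed mean of M values (TMM) and are given as CPM, a count relative to its scaled library size. The log2 ratio of a gene is log2 of ADGRF4 siRNA CPM + 1 over control CPM + 1, which understates the difference of genes with low values. Folds are ratios of scaled CPM with no pseudocount, and the values in parentheses after them bound an exact 95% interval (Clopper-Pearson) that covers counting error only. A symbol was compared when its 2 libraries averaged 30 counts or more, and all 10 members passed. In such bulk RNA, fewer cells with a transcript and less of it per cell cannot be told apart. A member is called lower or higher from a log2 ratio of at least 1 in size, which is 2-fold on that scale.

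Of the 10 members, 4 were at least 2-fold lower in the ADGRF4 siRNA library, 6 lay between the limits and 0 were at least 2-fold higher. The 4 were PIM1, MYC, PIM2 and PIM3. Over the 11771 compared symbols, 10.4% were at least 2-fold lower and 7.84% at least 2-fold higher. The median log2 ratio of the members was -0.53, against -0.02 over all compared symbols. Since the members were chosen with these values known, nothing is read from that contrast. Scaled to library totals instead, 1563 compared symbols were at least 2-fold lower and 556 higher, against 1219 and 923 with TMM, and all log2 ratios shift by -0.15 before the pseudocount. The same 4 members passed 2-fold under that scaling.

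**Figure D1:**
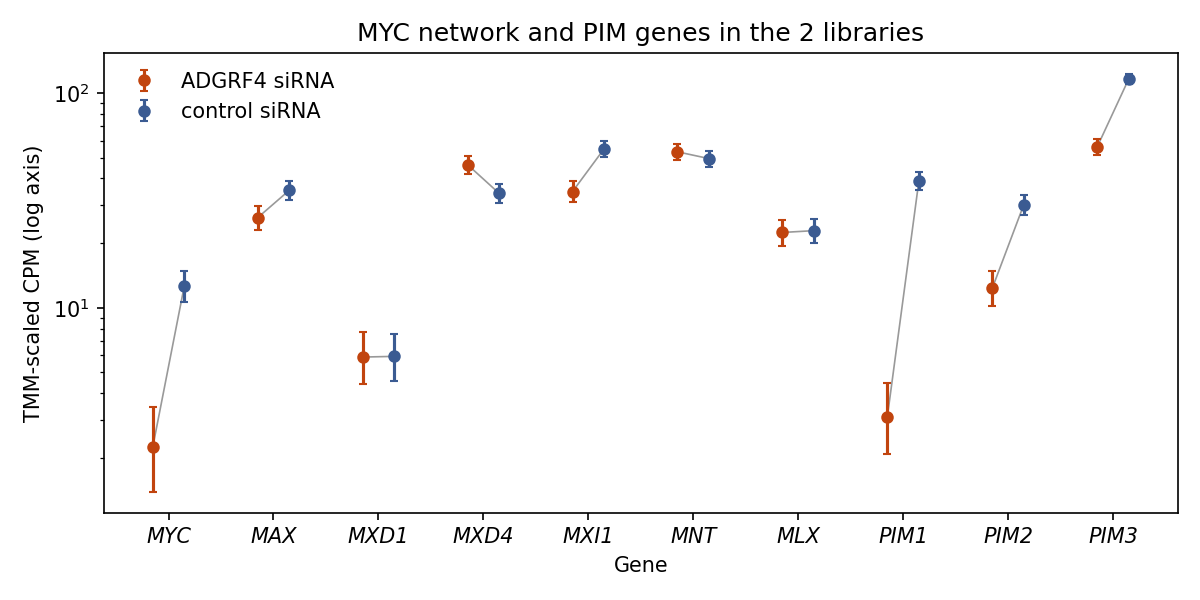
TMM-scaled CPM of the 10 genes on a log axis, with the ADGRF4 siRNA library at the left of each pair and the control library at the right; bars are exact Poisson 95% intervals of the counts. MYC, PIM1, PIM2 and PIM3 lie lower in the ADGRF4 siRNA library with intervals that do not meet, as do MAX and MXI1 by less, and MXD4 lies higher; the pairs of MXD1, MNT and MLX overlap.

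PIM1 had the largest difference of the set. It had 29 counts in the ADGRF4 siRNA library and 424 in the control library, or 3.11 and 38.7 scaled CPM. The ADGRF4 siRNA value was 12.5-fold lower (8.55 to 18.8). Its log2 ratio of -3.27 ranked 9 from the lowest among the compared symbols. At a mean of 226.5 counts, PIM1 falls in the class of 3519 symbols with a mean of 100 to 300 counts, where 12.1% lay past 2-fold and 1.45% past 4-fold on the lower side.

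The other kinases of the family differed in the same direction by less. PIM2, best known from lymphoid cells, had 115 counts in the ADGRF4 siRNA library and 330 in the control library and was 2.45-fold lower (1.97 to 3.05). PIM3, which is expressed in many epithelial tumours, had 523 and 1269 counts in the ADGRF4 siRNA and control libraries and was 2.07-fold lower (1.87 to 2.29). Its log2 ratio of -1.04 stood just past the limit. PIM2 and PIM3 ranked 807 and 1139 from the lowest, among the 1219 symbols that were 2-fold lower.

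The mix of PIM transcripts therefore differed between the libraries, a comparison that no scaling of library size can alter. PIM1 gave 4.35% of the summed PIM counts in the ADGRF4 siRNA library (exact 95% interval 2.93 to 6.18) and 20.96% in the control library (19.2 to 22.8). PIM3 gave 78.4% (75.1 to 81.5) and 62.7% (60.6 to 64.8) in the same libraries, and PIM2 17.2% (14.4 to 20.3) and 16.3% (14.7 to 18.0). The ratio of PIM1 to PIM3 counts was 6.03-fold lower in the ADGRF4 siRNA library (4.07 to 9.23), and that of PIM1 to PIM2 was 5.10-fold lower (3.27 to 8.14). The ratio of PIM2 to PIM3 was 1.18-fold lower, with an interval from 0.930 to 1.51 that includes no difference. Summed over the 3 genes, PIM counts were 667 in the ADGRF4 siRNA library and 2023 in the control library, 2.59-fold lower (2.37 to 2.83).

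MYC was the other member past 4-fold, a size that 1.38% of the compared symbols reached on the lower side. It had 21 counts in the ADGRF4 siRNA library and 138 in the control library, or 2.25 and 12.6 scaled CPM. The ADGRF4 siRNA value was 5.60-fold lower (3.52 to 9.34), with a log2 ratio of -2.07 and rank 145 from the lowest. MYC is scarcely counted in these libraries, at a mean of 79.5 counts, and the 2916 symbols with a mean of 30 to 100 counts scattered more widely than abundant ones. In that class 13.99% were at least 2-fold lower and 2.13% at least 4-fold lower. With a pseudocount of 5 CPM the log2 ratio of MYC was -1.28, and with 0.1 CPM it was -2.43.

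MAX, the shared partner of the network, was little different. It had 245 counts in the ADGRF4 siRNA library and 385 in the control library and was 1.34-fold lower (1.14 to 1.58). MLX, the partner in the parallel branch, had 209 and 250 counts in the ADGRF4 siRNA and control libraries, 1.02-fold lower with an interval from 0.845 to 1.23. The ratio of MYC to MAX counts was 4.18-fold lower in the ADGRF4 siRNA library (2.54 to 7.16). Thus the counts of MYC and of its obligate partner did not differ by the same factor. The 3' GC content was 21.3% for MYC and 45.7% for MAX. Their log2 ratios after centring on 3' GC, described below, were nearer to each other, at -1.71 and -0.51.

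The 4 repressors were split, and none reached 2-fold. MXI1, an antagonist of MYC, had 324 counts in the ADGRF4 siRNA library and 600 in the control library and was 1.58-fold lower (1.38 to 1.81). MXD4, a repressor linked to cell cycle exit, had 432 and 373 counts in the ADGRF4 siRNA and control libraries and was 1.36-fold higher (1.18 to 1.56), but its log2 ratio was -0.29 after centring on 3' base composition, described below. MNT, the most widely expressed repressor of the network, had 496 and 541 counts in those libraries, a ratio of 1.08 (0.95 to 1.22). MXD1, which appears in differentiating cells, had 55 and 65 counts, a ratio of 0.993 (0.680 to 1.44). The ratio of MXI1 to MXD4 counts was 2.14-fold lower in the ADGRF4 siRNA library (1.76 to 2.62). These genes differ widely in 3' GC, 36.3% for MXI1 and 59.0% for MXD4, and their centred log2 ratios lay close together at -0.42 and -0.29.

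Summed, the 4 repressor genes had 1307 counts in the ADGRF4 siRNA library and 1579 in the control library, a ratio of 0.971 (0.902 to 1.05). MYC gave 1.58% of the counts of MYC and these repressors in the ADGRF4 siRNA library (exact 95% interval 0.981 to 2.41) and 8.04% in the control library (6.79 to 9.43). MXD4 gave 32.5% and 21.7% in the same libraries, and MXI1 gave 24.4% and 34.9%. The ratio of MYC to MNT counts was 6.02-fold lower in the ADGRF4 siRNA library (3.71 to 10.2), and that of MYC to MXI1 was 3.55-fold lower (2.18 to 6.03). These values are of RNA and say nothing about protein amounts.

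**Figure D2:**
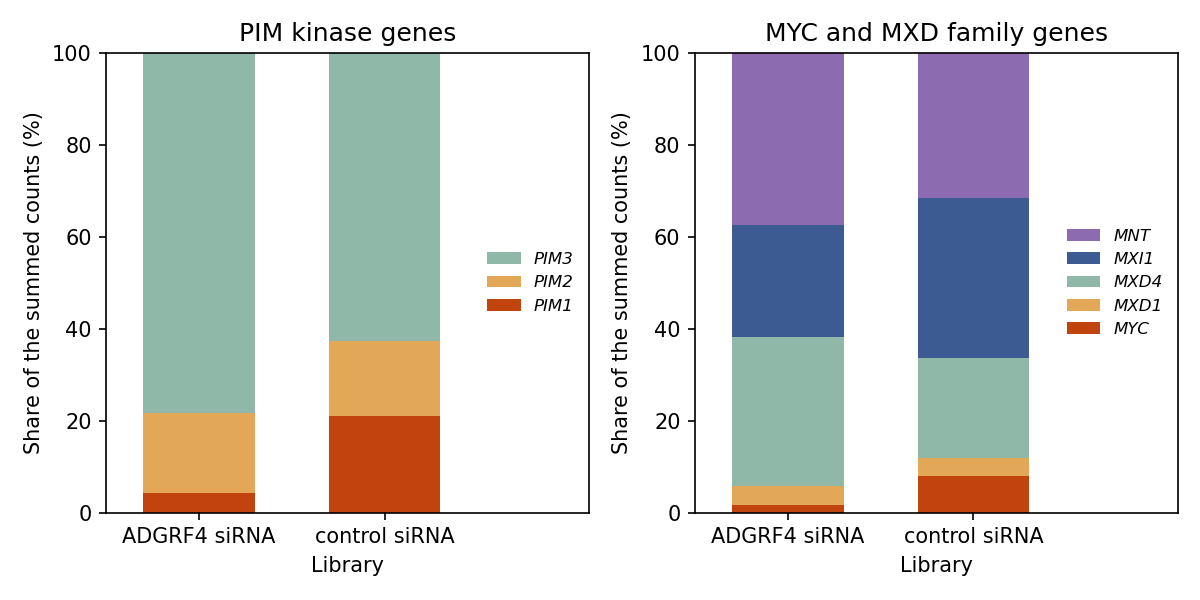
Share of the summed counts, in percent, that each gene took in the ADGRF4 siRNA library (left bar) and the control library (right bar), for the 3 PIM genes and for MYC with MXD1, MXD4, MXI1 and MNT. The share of PIM1 was 4.35% and 20.96%, and that of MYC 1.58% and 8.04%, in the ADGRF4 siRNA and control libraries.

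The log2 ratio moved with the base composition of the 3' end across all genes, so each member was set beside genes of like composition. Over the final 300 bases of its longest GENCODE 29 transcript, GC content was 48.3% for PIM1, 46.7% for PIM2 and 43.3% for PIM3, in the middle of the range. Of the 1538 compared symbols within 3 percentage points of PIM1, 0.195% had a lower ratio, and their median was 0.15. For PIM2 the corresponding share was 6.65% of 1639 symbols, and for PIM3 11.1% of 1736. MYC ends in very AT-rich sequence with 21.3% GC, where ratios were lower in general. The 148 symbols near it had a median of -0.35, and 4.05% of them lay below MYC.

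MXD4 had the most GC-rich 3' end of the set, 59.0%, and symbols near it had a median of 0.70. Of them, 33.4% lay below MXD4. MNT and MXD1 had 37.0% and 35.0% GC, and 70.6% and 65.9% of their neighbours lay below them. After ratios were centred on the median within 20 bins of 3' GC, the log2 ratio was -3.42 for PIM1, -1.71 for MYC, -1.31 for PIM2 and -0.99 for PIM3. PIM3 then no longer reached 2-fold, and 3 of 10 members did, against 9.17% of the 11139 symbols with a GC value on the lower side. The part of base composition in the ratios of single members was not tested.

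**Figure D3:**
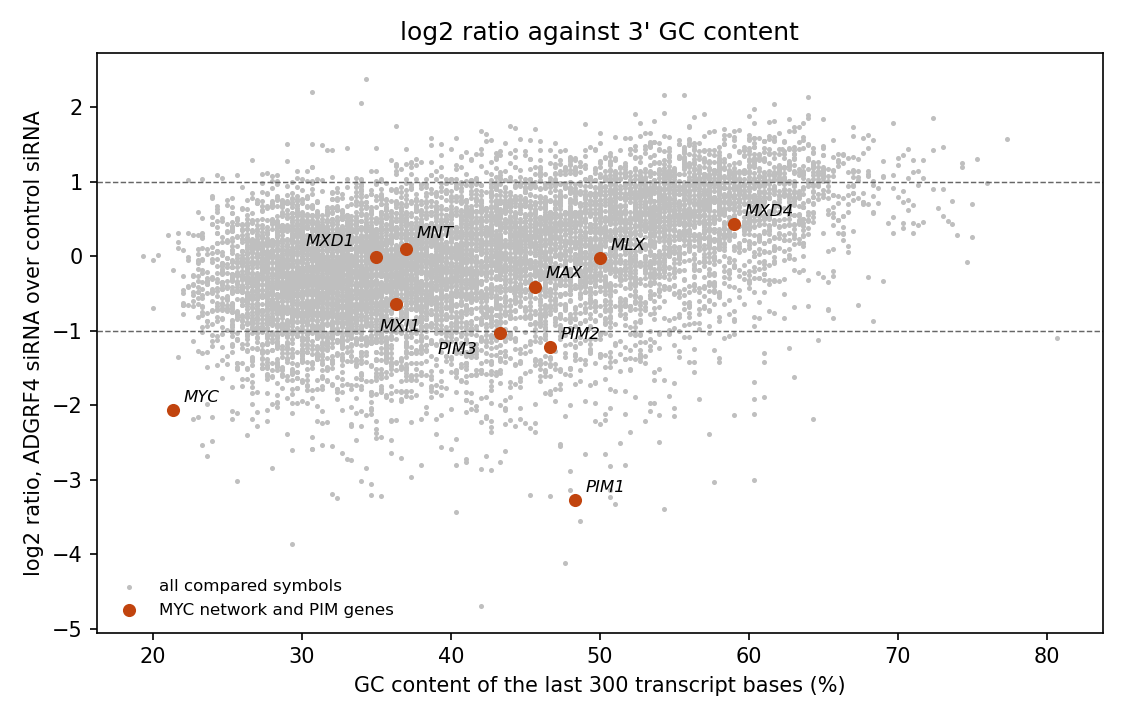
log2 ratio of ADGRF4 siRNA over control siRNA against GC content over the final 300 transcript bases, for all compared symbols with annotation (grey) and the 10 members (red); dashed lines mark 2-fold. PIM1, at -3.27, lies at the lower edge of the symbols of like GC content, while MXD4, at 0.43, lies inside the GC-rich cloud.

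MYC and PIM1 are textbook cases of short-lived mRNAs with AU-rich 3' untranslated regions (UTRs), so the pentamer ATTTA, the core of such elements, was counted in the annotated 3' UTR of each member. MYC has 4 in 476 bases, or 8.40 per kb, a density that 1.53% of 10569 compared symbols reach. PIM3 has 4 in 953 bases (4.20 per kb), PIM1 has 3 in 1335 (2.25 per kb) and PIM2 has 2 in 949 (2.11 per kb). The density of PIM3 is reached by 12.5% of these symbols and that of PIM1 by 38.7%. The median over compared symbols was 1.63 per kb. MXD4 and MNT have 0, MLX 2 in 1636 bases, MAX 3 in 2601, MXI1 4 in 2378 and MXD1 10 in 4661 (2.15 per kb). The 4 members that were at least 2-fold lower thus all lie above 2 per kb, together with MXD1, whose ratio was near 1. That range is common, since of the 10569 symbols 3118 have 2 to 4 per kb and 1488 at least 4. Over all compared symbols, 16.3% of the 1488 with at least 4 per kb and 12.8% of the 3118 with 2 to 4 per kb were at least 2-fold lower, against 7.21% of the 2884 with none. These classes also differ in median 3' GC, which was 32.0% with at least 4 per kb, 34.0% with 2 to 4 per kb and 52.7% with none, and after centring on GC their median log2 ratios were -0.08, -0.04 and 0.04. The part of the ATTTA pentamer in the difference of any member was not tested.

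Annotation limits some of these counts. MAX has 13 distinct 3' ends among its coding transcripts, MYC 8 and MXI1 6, and a 3' end assay reads whichever end is used. PIM1, PIM3 and MXD4 have 1 each. Exons of MAX, MXI1, MNT and MLX are overlapped on the other strand by another annotated gene, which is PSMC3IP for MLX, and a count made without regard to strand would mix the reads of such a pair. MYC and the 3 PIM genes have no such overlap and no named pseudogene copy.

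Because 2 libraries give only 1 ratio per gene, likeness to a member is a single number, the absolute difference of log2 ratios. Within 8515 symbols that averaged 100 counts or more, left after some classes of names were passed over, CD9, a tetraspanin, came nearest to PIM1 with a difference of 0.026, followed by DTD1 with 0.037 and ARHGEF2, a RHOA exchange factor, with 0.058. SOCS3, read from the lists below, averaged 99.5 counts and so was not searched. Its log2 ratio of -3.224 was nearer to PIM1 than the -3.216 of ARHGEF2. That order rests on the pseudocount, since SOCS3 had 0.964 scaled CPM in the ADGRF4 siRNA library. With no pseudocount SOCS3 was 18.0-fold lower, CD9 13.3-fold, DTD1 12.3-fold and ARHGEF2 11.3-fold, and PIM1 was 12.5-fold lower (8.55 to 18.8). The nearest to MYC were POLR2B, an RNA polymerase II subunit, RLIM, a ubiquitin ligase, and COMMD6, each within 0.0034 of it. This closeness depends on the pseudocount. Without it POLR2B, RLIM and COMMD6 were 4.43-fold, 4.23-fold and 4.25-fold lower, and MYC 5.60-fold (3.52 to 9.34).

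Genes around the 10 members were read from 10 lists chosen by textbook role, with 1.5-fold on the log2 ratio scale as the limit. Over all compared symbols 22.3% were at least 1.5-fold lower and 21.1% at least 1.5-fold higher in the ADGRF4 siRNA library. With library totals these shares were 27.7% and 16.1%, and centred on 3' GC they were 19.1% and 15.2%. List counts under those settings are to be read beside these shares. No list was tested, and nothing is called particular to one.

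Of the 6 other genes of the network, 5 were compared, 1 was at least 1.5-fold higher and 0 lower (median 0.27, and 0.04 centred on 3' GC). MLXIPL, the glucose-responsive partner of MLX also called ChREBP, had 503 counts in the ADGRF4 siRNA library and 323 in the control library and was 1.83-fold higher (1.59 to 2.11). Its log2 ratio was 0.27 after centring on 3' GC. The repressor MXD3, abundant with 3528 and 2974 counts in those libraries, was 1.39-fold higher (1.32 to 1.46), and its log2 ratio was -0.01 after centring. MGA, a large MAX partner, was 1.21-fold higher (1.04 to 1.41). MYCL had 48 and 81 counts, a ratio of 0.695 (0.476 to 1.01), and MYCN 0 and 2, at or under the limit of 3 counts. Neither paralogue of MYC had more counts in the ADGRF4 siRNA library.

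Genes that control MYC protein turnover went both ways. Among the 19 listed, 3 passed 1.5-fold on the lower side and 5 on the higher (median 0.15). With library totals 4 were lower and 4 higher (median -0.0011), and centred on 3' GC 3 were lower and 7 higher (median 0.32). SKP2, an F-box protein that ubiquitinates MYC and the inhibitor p27, was 5.45-fold lower (4.01 to 7.55), with 48 counts in the ADGRF4 siRNA library and 307 in the control library. STUB1, a chaperone-linked ubiquitin ligase, was 2.71-fold higher (2.51 to 2.94), GSK3A, a kinase of the MYC degron, 2.44-fold higher (2.16 to 2.76) and the mitotic kinase PLK1 2.22-fold higher (2.05 to 2.40). After centring on 3' GC the log2 ratios of STUB1, GSK3A and PLK1 were 0.71, 0.93 and 0.66.

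Among 20 MYC cofactors, 1 was lower, 4 were higher and 15 lay between (median -0.10). With library totals 3 were lower and 1 higher, and centred on 3' GC 5 were lower and 2 higher. The elongation kinase CDK9 had 18 counts in the ADGRF4 siRNA library and 57 in the control library and was 2.70-fold lower (1.57 to 4.87). The chromatin remodeller SMARCA4 was 1.84-fold higher (1.64 to 2.08) and the ATPase RUVBL2 1.60-fold higher (1.45 to 1.77), with a log2 ratio of 0.09 for RUVBL2 after centring. The 12 corepressor genes used by MXD and MNT proteins gave 2 lower and 2 higher (median 0.04), and 1 of each centred on 3' GC. The histone-binding subunit RBBP7 was 3.62-fold lower (3.21 to 4.09) and the corepressor NCOR1 1.58-fold lower (log2 ratio -0.38 after centring), while RBBP4 was 1.52-fold higher.

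Of 17 proteins that bind MYC mRNA or its gene, 3 were at least 1.5-fold lower and 4 higher (median -0.29, and 0.01 centred on 3' GC). The decay factors ZFP36L1 and ZFP36L2, which bind AU-rich elements, were both lower, ZFP36L1 by 2.64-fold (2.52 to 2.76) and ZFP36L2 by 3.09-fold (2.57 to 3.74). ZFP36 and KHSRP of the same list, named after their values were seen, did not go that way. ZFP36 had a ratio of 1.18 (0.974 to 1.44) and KHSRP was 1.57-fold higher (1.52 to 1.62). Centred on 3' GC the log2 ratios were -1.11 for ZFP36L1, -1.35 for ZFP36L2, 0.54 for ZFP36 and 0.55 for KHSRP. The splicing factors PUF60 and PTBP1 were 1.89-fold and 1.88-fold higher, but their log2 ratios were 0.19 and 0.07 after centring on 3' GC.

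Genes that MYC is known to activate went both ways. Of 40 listed, 36 were compared, with 5 below the lower 1.5-fold limit, 9 above the higher one and 22 between them (median 0.11, and -0.04 with library totals, where 8 were lower and 7 higher). SRM, which makes spermidine, had 2950 counts in the ADGRF4 siRNA library and 1096 in the control library and was 3.16-fold higher (2.94 to 3.39). The ribosome assembly genes RRP12 and BOP1 were 2.87-fold higher (2.48 to 3.34) and 2.39-fold higher (2.08 to 2.75), and the cell cycle factor E2F1 was 2.18-fold higher (1.94 to 2.45). The 5 lower genes, named after their values were seen, were APEX1, TFRC, GART, PAICS and NOP16. They ran from 1.9-fold lower for APEX1 (1.63 to 2.23) to 1.58-fold lower for NOP16 (1.39 to 1.81). Centred on 3' GC, 4 were lower and 6 higher, and the log2 ratios were 0.81 for SRM, 1.00 for RRP12, and 0.39 for both BOP1 and E2F1. The nucleolar genes NCL and NPM1, named after their values were seen, had ratios of 1.07 and 1.01.

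Of 10 genes that MYC is known to repress, 7 were compared, 3 were at least 1.5-fold lower and 2 higher (median -0.03). Centred on 3' GC the median was 0.32, with 2 lower and 1 higher, and with a mean of 10 counts or more it was -0.39. GADD45B, a stress-induced gene, had 235 counts in the ADGRF4 siRNA library and 1015 in the control library and was 3.68-fold lower (3.19 to 4.26). NDRG2 was 2.51-fold higher (2.30 to 2.75). Both CDK inhibitor genes of the list that were compared are also PIM substrates. CDKN1B, which encodes p27, was 1.95-fold lower (1.58 to 2.40), and CDKN1A, which encodes p21, was 1.84-fold higher (1.69 to 2.02). After centring on 3' GC their log2 ratios were -0.58 and 0.54, and neither reached 1.5-fold. Of the other CDK inhibitor genes listed, CDKN1C had 12 counts in the ADGRF4 siRNA library and 47 in the control library, just under the count limit, and CDKN2B had 0 in each.

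Of 17 genes for PIM substrates, 16 were compared, 2 were at least 1.5-fold lower and 4 higher (median 0.07). With library totals 5 were lower and 3 higher, and centred on 3' GC 1 was lower and 0 higher. Besides SKP2, CDKN1A and CDKN1B, the translation repressor EIF4EBP1 had 601 counts in the ADGRF4 siRNA library and 341 in the control library, 2.07-fold higher (1.81 to 2.37), with a log2 ratio of 0.30 after centring on 3' GC.

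Another list held JAK-STAT genes that by textbook role act upstream of PIM1, with their feedback inhibitors. Their part in the difference of PIM1 was not tested. SOCS3, a STAT3-induced inhibitor of cytokine receptors, had 9 counts in the ADGRF4 siRNA library and 190 in the control library and was 18.0-fold lower (9.28 to 40.0). The cytokine LIF had 20 and 136 counts in those libraries and was 5.80-fold lower (3.61 to 9.79). The receptor genes OSMR, for oncostatin M, and IL6R, for interleukin 6, gave 2.12-fold lower counts (1.63 to 2.78) and 1.68-fold lower counts (1.28 to 2.23) in the ADGRF4 siRNA library. Of 20 genes listed, 13 were compared, 4 were at least 1.5-fold lower, 1 was higher and 8 lay between, with a median of -0.37. Centred on 3' GC the median was -0.09, with 3 lower and 0 higher, and the log2 ratio of IL6R was -0.42. STAT3 itself, named after its values were seen as the 1 gene on the higher side, had 1259 counts in the ADGRF4 siRNA library and 927 in the control library. The other 7, IL6, OSM, LIFR, STAT5A, SOCS1, SOCS2 and CISH, were under the count limit.

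Of the 7 targets of MLX with its partners, 5 were compared, 1 was at least 1.5-fold lower and 0 higher (median 0.42, and 0.15 centred on 3' GC). KLF10, a zinc finger repressor that glucose and TGF-beta both induce, was 3.73-fold lower (3.13 to 4.46). TXNIP, the best known target of MLXIP, had 68 counts in the ADGRF4 siRNA library and 57 in the control library, a ratio of 1.40 (0.970 to 2.03). The lipogenic genes ACACA and FASN had ratios of 1.36 (1.21 to 1.53) and 1.34 (1.26 to 1.42). After centring on 3' GC their log2 ratios were 0.48 for ACACA and -0.07 for FASN.

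**Figure D4:**
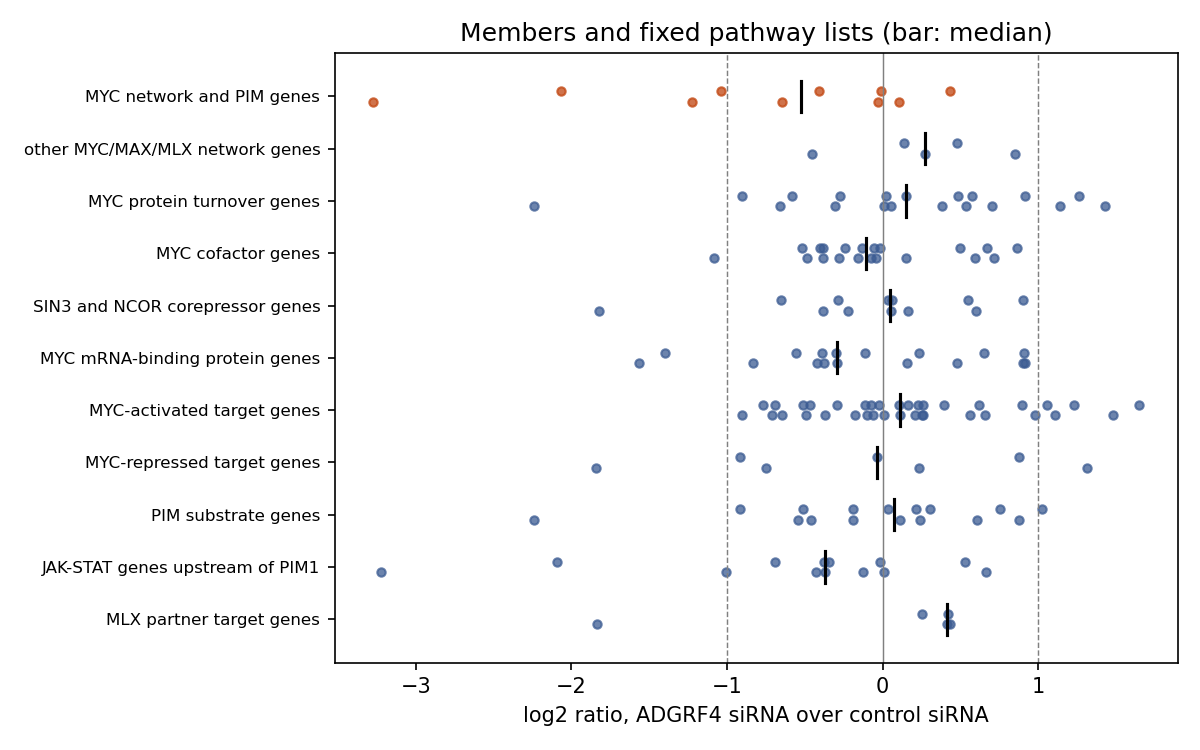
log2 ratio of ADGRF4 siRNA over control siRNA for each compared gene of the 10-gene set (red, top row) and of the 10 pathway lists (blue), with the median of each as a black bar and 2-fold as dashed lines. PIM1 at -3.27 and SOCS3 at -3.22 are the lowest points; the list medians run from -0.37 for JAK-STAT genes to 0.42 for targets of MLX partners.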

How the data were processed

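Each deposited file holds raw counts by gene symbol for 1 library. The tools Bowtie2 and edgeR and the build hg19 are named per the submitters' processing notes, without roles or versions, and the gene annotation and use of strand are not given in the sources consulted. The genes, lists and limits were chosen with earlier results of these counts known. Rows of 1 symbol were summed. TMM factors came from edgeR 4.0.16 (R 4.3.3), and the log2 ratio used a pseudocount of 1 CPM and a mean of at least 30 counts. No test was run, since each group has 1 library. Intervals of ratios and shares are exact 95% binomial intervals, and reads without molecular identifiers make the true error larger. The rule for named genes takes the 10 members, up to 4 compared genes per list with the largest absolute log2 ratio, and the 3 nearest in ratio to PIM1 and to MYC, passing over LOC, LINC, MIR, SNOR, RNU, open reading frame and AS names. Some genes that this rule names are not reported here. 3' GC content and UTRs came from GENCODE 29 (GRCh38), with a GC value for 11139 of the 11771 compared symbols. The ratio calculation was tested on simulated data. Alternatives were library totals, DESeq2 1.42.0 size factors, upper-quartile factors, other pseudocounts, count and fold limits, rows kept apart and centring on 3' GC. Python 3.11.15, numpy 2.4.6, pandas 2.3.3, scipy 1.17.1 and matplotlib 3.10.9 were used.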

Additional observations from a re-analysis of the deposited data

How the results depend on the processing

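Under 11 alternatives, 3 to 5 of the 10 members were at least at the lower limit and 0 at the higher one. The count was 3 with a pseudocount of 5 CPM (log2 ratio of PIM3 -0.99), with a mean of at least 100 counts (MYC and MXD1 not compared) and after centring on 3' GC, and 5 at 1.5-fold. At 2-fold, the share of all compared symbols on the lower side ran from 5.94% with 5 CPM to 13.3% with library totals. On the higher side it ran from 3.67% centred on 3' GC to 9.15% with 0.1 CPM. At 1.5-fold the shares were 22.3% lower and 21.1% higher. The median of the members ran from -0.67 with library totals to -0.47 centred on 3' GC. Across these alternatives the log2 ratio of PIM1 lay between -3.60 and -2.43, MYC between -2.43 and -1.28, PIM2 between -1.37 and -1.02 and PIM3 between -1.18 and -0.99. That of MXD4 ran from -0.29 to 0.44 and that of MNT from -0.04 to 0.28. Of 98 recomputed member values, 4 left the counting interval, those of MYC and PIM1 at 5 CPM and of MXD4 and MXI1 centred on 3' GC. Of 320 recomputed list values, 47 moved by more than 1.5 times or beyond counting error, and 6 medians changed sign. No paired analysis was possible because each treatment has 1 library. MYC and PIM1 rest on 21 and 29 counts in the ADGRF4 siRNA library, which sets the width of their intervals.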
